A study of Mus musculus with 4 samples.

Results

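The apical surface of a hair cell carries the hair bundle, rows of actin-filled stereocilia that are held together by several sets of extracellular links. A set of 9 genes of those links and of the bundle surface were followed in whole cochleae of mice homozygous for cello, a mutant allele of Ikzf2, and of wild-type littermates. They are Strc, Ptprq, Adgrv1, Whrn, Pdzd7, Clrn1, Clrn2, Loxhd1 and Tub. They were taken by name as genes of horizontal connectors, ankle links and shaft connectors or of the proteins that act with them, and make up 9 of the 37239 genes in the files. Ikzf2 encodes helios, which belongs to the Ikaros family of zinc finger proteins and is expressed in maturing outer hair cells, and cello is a missense allele. The groups were Ikzf2cello/cello cochleae and Ikzf2+/+ cochleae, both at postnatal day 8, with 2 libraries each. The labels do not give the number of animals behind a library, so p-values measure the spread between these libraries, which may in part be technical. The allele is carried by all cells of the animal, so its presence is not limited to hair cells.

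Horizontal top connectors join neighbouring stereocilia near their tips. Stereocilin, the product of Strc, is part of them in outer hair cells and of the attachment crowns that anchor the tallest row in the tectorial membrane. Ankle links join the bases of the stereocilia while the bundle matures and contain the receptor Adgrv1, which the scaffold proteins whirlin (Whrn) and Pdzd7 hold in place. Shaft connectors lie along the shafts and need the receptor phosphatase Ptprq. Mutations of most of these genes cause deafness in people.

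The cello libraries held 42450937 and 47463910 counted alignments, and the wild-type libraries 49719984 and 42152616. In them 1 read was worth 0.0201 to 0.0237 CPM, the deposited unit, in which reads are scaled to a common library total. Ikzf2 itself, whose transcript a missense allele need not remove and which therefore does not check the labels, had 17.7 and 16.9 CPM in cello against 22.9 and 18.5 CPM in wild-type (limma adjusted p = 0.545). All 7 markers of hair cells and all 7 of outer hair cells were detected in every library, and no marker of any list was at 0 in all 4 libraries. The libraries also differed in make-up within a genotype. The summed level of 9 spiral ganglion neuron markers was 787 and 918 CPM in cello and 321 and 666 CPM in wild-type, with 5 of the 9 higher in both cello libraries. That of 7 Schwann cell markers was 3779 and 4651 CPM in cello and 1062 and 2611 CPM in wild-type, with 6 of the 7 higher in both cello libraries. Of all genes tested, 16.9% were higher in both cello libraries and 28.7% lower. The summed level of 5 bone markers was 2205 and 468 CPM in cello and 884 and 931 CPM in wild-type. The summed level of 12 epithelial markers was 829 and 889 CPM in cello and 1057 and 1131 CPM in wild-type, with 11 of the 12 lower in both cello libraries. In whole cochleae, fewer cells of a type and less RNA per cell cannot be told apart.

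Among the bundle link genes tested, the 3 with lower levels in both cello libraries than in both wild-type libraries were Strc, Adgrv1 and Ptprq. The scaffold genes Whrn and Pdzd7, and Clrn1, Loxhd1 and Tub, overlapped between genotypes. Clrn2, with fewer than 20 reads in each library, was too low to be tested. The fit over all genes was made with limma, on log2(CPM + 0.5), and covered the 14721 genes that reached 1 CPM in 2 or more libraries. At an adjusted p of 0.05 it called 0 genes (0%), and thus 0 of the 8 bundle link genes tested. At an unadjusted p under 0.05 it held 952 genes that were lower and 651 that were higher in cello, or 6.47% and 4.42%, and among the 8 genes 3 that were lower and 0 that were higher. The count tests differed on the same reads, with 0 genes past the threshold in edgeR and 195 in DESeq2.

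Genes whose cello libraries both lay below both wild-type libraries made up 28.7% of all genes tested, and genes with the opposite order 16.9%. Of the 8 bundle link genes tested, 3 had the first order and 0 the second. The share of 3 in 8 is 37.5% and lies near the background, so the count by itself is no result about these genes. Log2 fold changes below 0 were found for 6 of the 8, beside 56.6% of all genes tested. The median of the 8 was -0.33, beside -0.03 over all genes. Relative to hair cell markers it was 0.18, beside 0.48 over all genes. That scaling moves every gene by the same amount, so the gap to all genes is kept by construction and adds no separate result.

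**Figure D1:**
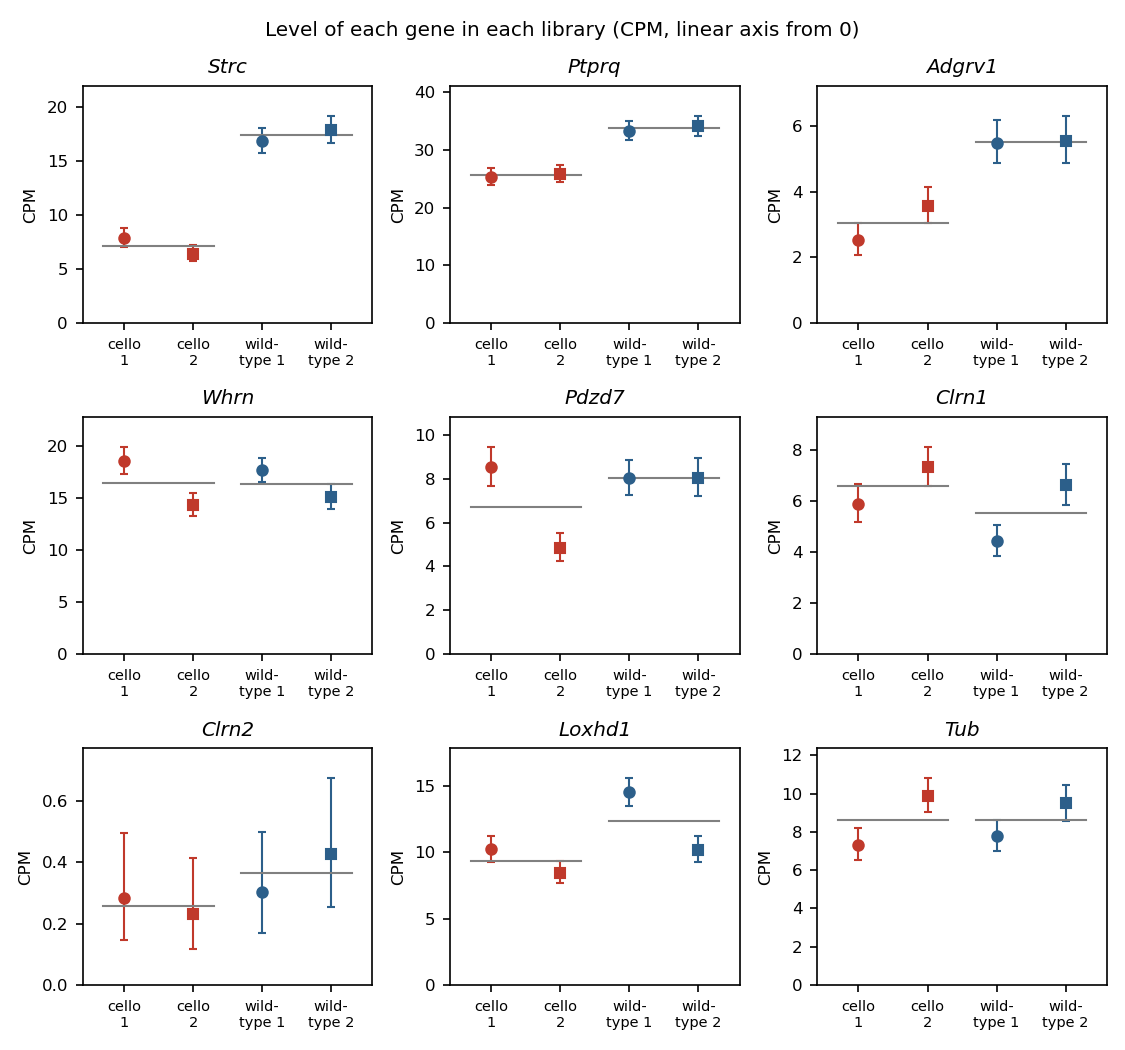
Level of each of the 9 genes in each library in CPM, on linear axes from 0 that differ between panels, with cello in red and wild-type in blue. Points are libraries (circle, replicate 1, square, replicate 2), bars are exact Poisson 95% intervals of the read count and grey lines are group means. Strc, Ptprq and Adgrv1 are separated by genotype, with Strc at 6.40 to 7.87 CPM in cello and 16.9 to 17.8 CPM in wild-type, while Whrn, Pdzd7, Clrn1, Loxhd1 and Tub overlap.

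Strc had the largest difference of the 9 genes. The gene (ENSMUSG00000033498, chromosome 2, 121363728 to 121387168 of GRCm38, minus strand, with 6229 exon bases) had 7.87 and 6.40 CPM in cello against 16.9 and 17.8 CPM in wild-type. These levels rest on 334 and 304 reads in cello and 838 and 752 reads in wild-type. Both cello libraries lay far below both wild-type libraries. The Poisson intervals, which cover counting error only, were 7.05 to 8.76 and 5.71 to 7.17 CPM in cello and 15.7 to 18.0 and 16.6 to 19.2 CPM in wild-type. The cello mean was 41.1% of the wild-type mean. The log2 fold change was -1.23 (SE 0.14, 95% interval -1.60 to -0.86). Ranked by p-value, Strc came 5th among the genes lower in cello, and its adjusted p over all genes was 0.419 in limma. DESeq2 gave an adjusted p of 9.1e-06 for Strc, which was the 1 bundle link gene it called, where it called 0.543% of all genes as lower and 0.781% as higher. In edgeR the adjusted p was 0.451. Markers of outer hair cells, the cells in which stereocilin acts, were lower in both cello libraries for 7 of 7 genes, beside 28.7% of all genes tested, with a median log2 fold change of -0.53. Other lists were lower too, with 5 of 5 stria vascularis markers (median -0.40) and 5 of 7 supporting cell markers (-0.29) lower in both cello libraries, and 3 of 5 inner hair cell markers lower and 1 higher (-0.12). The summed level of the outer hair cell markers was 239.7 and 219 CPM in cello and 395 and 396 CPM in wild-type, none of the 7 was at 0, and their part in the level of Strc was not tested.

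The promoter of Strc is given with that of Adgrv1, since these were the bundle link genes with the largest differences and helios belongs to a family whose DNA-binding zinc fingers recognise a GGGAA core. The sequences run 5′ to 3′ from 250 bases before to 50 bases after the RefSeq start (GRCm38.p6), chr2:121380891-121381190 and chr13:81633095-81633394, both on the minus strand. The RefSeq start of Strc lies inside the span of the gene given above. Capitals mark GGGAA on either strand.
Strc: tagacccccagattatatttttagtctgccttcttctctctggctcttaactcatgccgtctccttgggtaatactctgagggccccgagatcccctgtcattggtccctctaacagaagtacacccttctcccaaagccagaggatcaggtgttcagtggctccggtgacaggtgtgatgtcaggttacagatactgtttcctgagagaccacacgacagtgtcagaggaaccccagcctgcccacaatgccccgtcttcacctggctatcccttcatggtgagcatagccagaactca
Adgrv1: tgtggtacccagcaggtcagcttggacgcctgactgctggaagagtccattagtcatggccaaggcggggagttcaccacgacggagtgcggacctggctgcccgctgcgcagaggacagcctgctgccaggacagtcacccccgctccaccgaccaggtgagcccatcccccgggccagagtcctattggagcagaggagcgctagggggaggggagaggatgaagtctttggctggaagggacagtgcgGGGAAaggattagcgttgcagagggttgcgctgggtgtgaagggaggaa
RefSeq promoters were matched for 6 of the 9 genes. The GGGAA core, searched on both strands, was found in 2 of the 6, and in 62.7% of 32851 promoters of the same length. It was present in Adgrv1, at position 2 from the start, and in Clrn1, at position -177. It was not found in the windows of Strc, Whrn, Pdzd7 and Tub. The window of Tub, like that of Strc, lies wholly inside the span of its gene and not at the outer 5′ end. The longer TGGGAA, which contains GGGAA, was in 0 of the 6 and in 25.6% of all promoters. These are matches of letters in 1 window and say nothing about binding.

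The 5 genes whose profile over the 4 libraries lay nearest to that of Strc were Kmo, Slc26a5, Lmod3, Car7 and Klk8. Predicted genes, Rik names and pseudogenes were passed over in this choice. The measure is the Euclidean distance between log2(CPM + 0.5) values after each gene's mean was subtracted, and rests on 4 libraries. Kmo, which encodes the kynurenine pathway enzyme kynurenine 3-monooxygenase, was the nearest of these 5 (distance 0.17). Its levels were 1.88 and 1.2 CPM in cello and 4.47 and 4.46 CPM in wild-type. Slc26a5, the gene of the outer hair cell motor protein prestin, followed at a distance of 0.23, with 9.80 and 9.69 CPM in cello and 20.8 and 24.9 CPM in wild-type. The actin nucleator gene Lmod3 also lay at 0.23. The carbonic anhydrase gene Car7 lay at 0.26 and the serine protease gene Klk8 at 0.29. Of the bundle link genes, Adgrv1 was the nearest to Strc, at rank 107, followed by Ptprq at rank 416. These ranks count all 14720 other genes tested, with none passed over.

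Tub and the genes of the tectorial attachment belong to the same surroundings as stereocilin. Tub encodes tubby, a membrane-associated protein that in mice is found with stereocilin at the tips of outer hair cell stereocilia and is also expressed in neurons. The gene (ENSMUSG00000031028, chromosome 7, 108950338 to 109034460, plus strand) had 7.33 and 9.90 CPM in cello against 7.78 and 9.49 CPM in wild-type. The genotypes overlapped entirely, with the higher level in replicate 2 of each. Its log2 fold change was -0.01 (95% interval -0.51 to 0.49, limma adjusted p = 0.985), and its sign turned with other scalings of the libraries, TMM among them (0.03). Neuron markers were also higher in replicate 2 of each genotype, and their part in the level of Tub was not tested. On the opposite strand Gm26599, at 0 CPM in every library, overlaps 12.58% of the exon bases of Tub, and Ric3 overlaps 1.78%. The strand setting of the counts is not given in the sources used here.

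Otog and Otogl encode otogelin and otogelin-like, glycoproteins of the tectorial membrane that are also found with stereocilin in the crowns and horizontal connectors. Otog had 155 and 144 CPM in cello against 217 and 239.7 CPM in wild-type, with a log2 fold change of -0.61 (SE 0.09). Otogl had 97.2 and 117.5 CPM in cello against 136 and 153 CPM in wild-type, with a log2 fold change of -0.43 (SE 0.12). Both were lower in both cello libraries and neither passed in limma (adjusted p = 0.419 and 0.427). Otog passed in DESeq2 (adjusted p = 4.9e-04). The tectorial membrane genes Tecta, Tectb and Ceacam16 differed by far between the cello libraries. Tecta had 35.1 and 251 CPM in cello against 115 and 127 CPM in wild-type, Tectb had 748 and 2633 CPM in cello against 2474 and 2594 CPM in wild-type, and Ceacam16 had 15.3 and 3.27 CPM in cello against 6.40 and 5.93 CPM in wild-type. The 5 genes of this list had a median log2 fold change of -0.43, and 2 of them were lower in both cello libraries, beside 28.7% of all genes tested. Strc did not show such a gap between the cello libraries, with a ratio of 1.23 between the higher and the lower.

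Ptprq is the gene of the shaft connector phosphatase, a receptor with a long extracellular part of fibronectin repeats. The gene (ENSMUSG00000035916, chromosome 10, 107517049 to 107720051, minus strand) had 25.4 and 25.8 CPM in cello against 33.3 and 34.1 CPM in wild-type. The libraries of a genotype differed by less than their counting error, and the genotypes did not overlap. The mean in cello was 75.9% of that in wild-type. The log2 fold change was -0.39 (SE 0.08, 95% interval -0.60 to -0.18), with an adjusted p of 0.419 in limma and of 0.179 in DESeq2.

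In the base of the stereocilium Ptprq acts with the chloride channel-like protein Clic5, the membrane-actin linker radixin (Rdx), taperin (Tprn) and the motor myosin 6 (Myo6), and taperin with Grxcr2. Of these 5 genes, 0 passed in limma, 5 had a log2 fold change below 0 (beside 56.6% of all genes tested) and 2 were lower in both cello libraries (beside 28.7%), with a median of -0.06. Clic5 had 31.3 and 30.1 CPM in cello against 33.4 and 36.9 CPM in wild-type, and Tprn had 27.4 and 26.9 CPM in cello against 30.5 and 33.9 CPM in wild-type. Their log2 fold changes were -0.19 (95% interval -0.42 to 0.044) and -0.24 (95% interval -0.48 to 0.0033). Rdx (-0.04), Myo6 (-0.06) and Grxcr2 (-0.06) overlapped between genotypes.

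Adgrv1 encodes a very large adhesion G protein-coupled receptor whose extracellular part spans the ankle link. The gene (ENSMUSG00000069170, chromosome 13, 81095068 to 81633154, minus strand) had 2.52 and 3.56 CPM in cello against 5.49 and 5.55 CPM in wild-type. The reads behind these levels were 107 and 169 in cello and 273 and 234 in wild-type. Both cello libraries were lower than both wild-type libraries, and the cello libraries differed from each other by a ratio of 1.41. The mean in cello was 55.1% of that in wild-type. The log2 fold change was -0.78 (SE 0.20, 95% interval -1.30 to -0.26). The adjusted p was 0.421 in limma, 0.471 in edgeR and 0.255 in DESeq2, and none passed.

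Whrn encodes whirlin, the PDZ scaffold that is present at the ankle region and, with myosin 15, at the tips of stereocilia. The gene (ENSMUSG00000039137, chromosome 4, 63414910 to 63495991, minus strand) had 18.6 and 14.3 CPM in cello against 17.6 and 15.1 CPM in wild-type. The genotypes overlapped, with the higher level in replicate 1 of each. The means were 16.5 ± 3.0 CPM in cello and 16.4 ± 1.80 CPM in wild-type (SD, n = 2 each). The log2 fold change was 0.0016 (95% interval -0.42 to 0.42). Its sign turned when cello replicate 1 (-0.18) or wild-type replicate 2 (-0.11) was left out.

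Pdzd7, whose product joins whirlin in the ankle link complex, varied mostly between the cello libraries. The gene (ENSMUSG00000074818, chromosome 19, 45026906 to 45045717, minus strand) had 8.55 and 4.87 CPM in cello against 8.05 and 8.07 CPM in wild-type. Cello replicate 2 was lower than the other 3 libraries and cello replicate 1 was the highest. The SD between the cello libraries was 2.61 CPM, against 0.390 CPM from counting error. The log2 fold change was -0.30 (95% interval -0.98 to 0.39), which became -0.67 with cello replicate 1 left out and 0.08 with cello replicate 2 left out. Bone markers were also far apart in these 2 libraries, and their part in the level of Pdzd7 was not tested. Lzts2 on the opposite strand shares 5.08% of the exon bases of Pdzd7.

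The list of ankle link partners held 3 genes, Vezt (vezatin, an adherens junction protein of the ankle region), Myo7a (the motor that carries ankle link proteins) and Adcy6 (adenylyl cyclase 6, an enzyme of the ankle region). Of these, 0 had a log2 fold change below 0, and the median was 0.04. Vezt was higher in both cello libraries, at 39.7 and 40.1 CPM in cello against 38.3 and 34.1 CPM in wild-type, and did not pass in limma (adjusted p = 0.595). Myo7a had 21.0 and 14.2 CPM in cello against 17.5 and 16.04 CPM in wild-type, and Adcy6 had 86.8 and 71.6 CPM in cello against 81.6 and 74.5 CPM in wild-type. Both overlapped between genotypes. The difference between Adgrv1 and these genes was not tested.

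The 6 scaffold and motor genes of the same protein network all had log2 fold changes below 0, with a median of -0.39, and 4 of the 6 were lower in both cello libraries, beside 28.7% of all genes tested. Cib2, a calcium-binding partner of whirlin and of the mechanotransduction channel, had 25.8 and 31.3 CPM in cello against 41.5 and 42.2 CPM in wild-type (log2 fold change -0.55, SE 0.12). Eps8, an actin regulator that whirlin and myosin 15 bring to the tips, had 15.8 and 23.7 CPM in cello against 26.6 and 27.5 CPM in wild-type (-0.47, SE 0.20). Myo15, the gene of myosin 15, had 11.4 and 8.09 CPM in cello against 14.98 and 12.0 CPM in wild-type (-0.46, SE 0.21). The scaffold genes Ush1c, for harmonin (-0.26), and Ush1g, for SANS (-0.31), and the whirlin-binding gene Mpp1 (-0.01) made up the rest. By limma 0 of the 6 passed. Over all 20 partner genes of the list, 0 passed and 16 had log2 fold changes below 0. Of the 20, 9 lay lower in both cello libraries (45%, beside 28.7% of all genes) and 1 higher. Their median was -0.25, and 0.26 relative to hair cell markers, where that of all genes was 0.48.

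**Figure D2:**
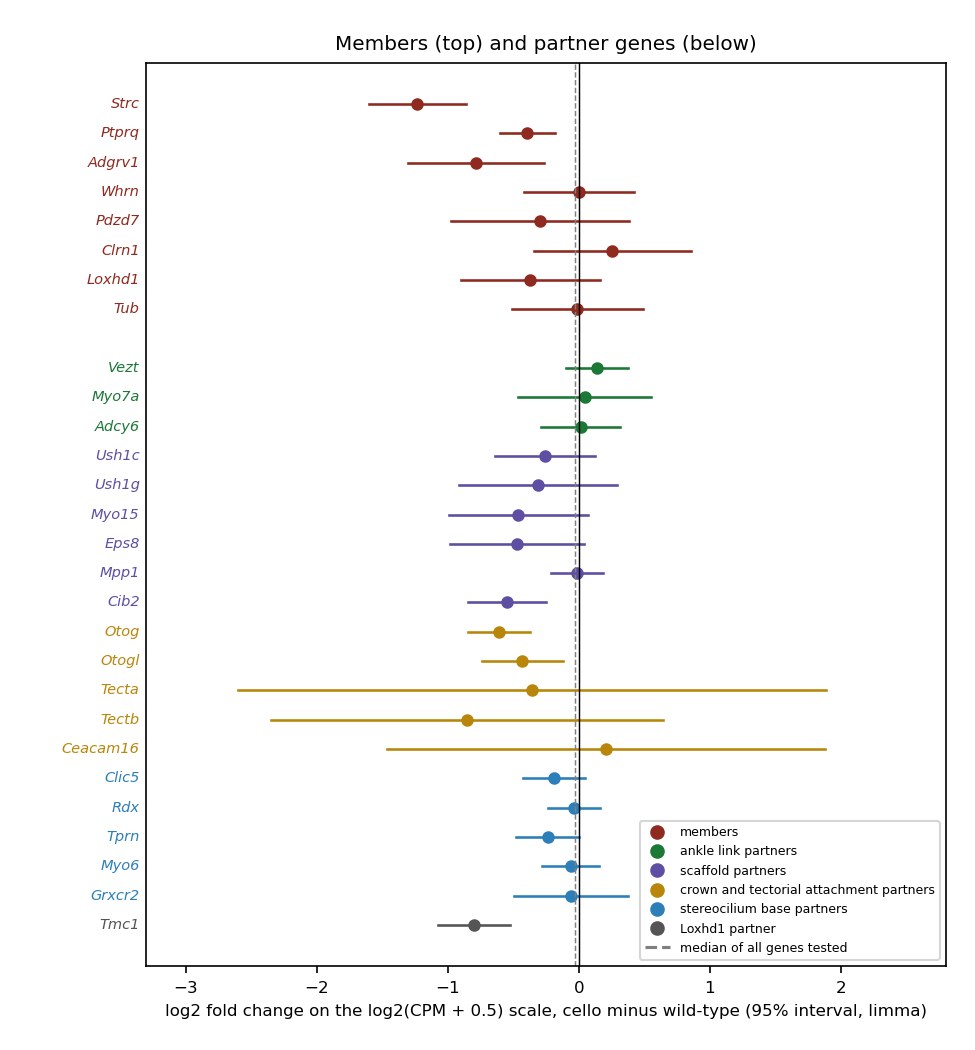
Log2 fold change of the 8 bundle link genes tested and of 20 partner genes (cello minus wild-type, from log2(CPM + 0.5)), with points for estimates and lines for limma's 95% intervals. The black line marks 0 and the dashed line the median of all genes tested (-0.03). Of the bundle link genes, Strc lies farthest to the left at -1.23, followed by Adgrv1 at -0.78, while the intervals of Whrn, Pdzd7, Clrn1, Loxhd1 and Tub span 0.

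Clrn1 and Clrn2 encode the clarins, small proteins that cross the membrane several times, which hair bundles need for their upkeep, and Clrn1 also acts at the ribbon synapse. Clrn1 (ENSMUSG00000043850, chromosome 3, 58844028 to 58885340, minus strand) had 5.89 and 7.33 CPM in cello against 4.42 and 6.62 CPM in wild-type. Its level was lowest in wild-type replicate 1 and highest in cello replicate 2, and the genotypes overlapped. It had the highest log2 fold change of the 8 genes tested, 0.26 (95% interval -0.34 to 0.85, limma adjusted p = 0.702). Leaving out wild-type replicate 1 gave -0.0091, and leaving out wild-type replicate 2 gave 0.52. The libraries that were lowest and highest in Clrn1 were also lowest and highest in neuron markers, whose part in this was not tested. Clrn2 (ENSMUSG00000049530, chromosome 5, 45453751 to 45464149, plus strand) had 12 and 11 reads in cello and 15 and 18 reads in wild-type, or 0.283 and 0.232 CPM in cello and 0.302 and 0.427 CPM in wild-type. Both cello values were below both wild-type values, but the Poisson intervals overlapped between genotypes, and a difference was not detectable at this depth. Without the filter its log2 fold change was -0.19 (95% interval -0.51 to 0.14).

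Loxhd1 encodes a protein made of PLAT domains that lies along the membrane of the stereocilia. The gene (ENSMUSG00000032818, chromosome 18, 77281958 to 77442930, plus strand) had 10.2 and 8.47 CPM in cello against 14.5 and 10.2 CPM in wild-type. Wild-type replicate 1 was above the other libraries, and cello replicate 1 was level with wild-type replicate 2. The log2 fold change was -0.37 (95% interval -0.90 to 0.16, limma adjusted p = 0.546). Leaving out wild-type replicate 1 gave -0.12, and leaving out wild-type replicate 2 gave -0.62. Tmc1, the mechanotransduction channel subunit with which Loxhd1 has been linked in mouse hair cells, had 10.7 and 10.1 CPM in cello against 18.7 and 18.2 CPM in wild-type. Its log2 fold change was -0.80 (SE 0.11), it did not overlap between genotypes, and it passed in DESeq2 (adjusted p = 0.0016) but not in limma (adjusted p = 0.419).

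**Figure D3:**
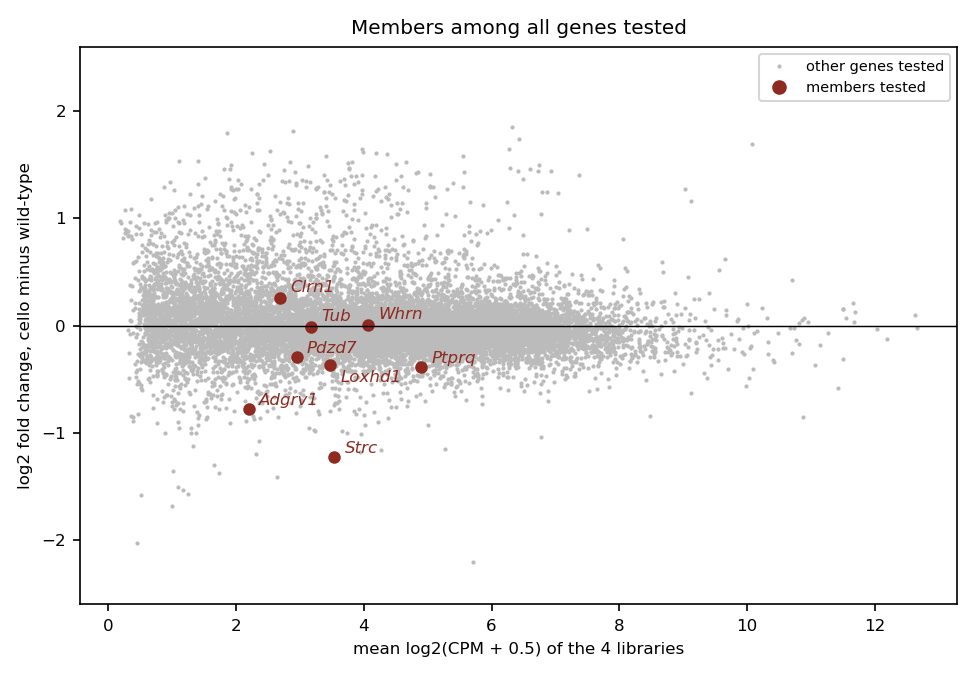
Log2 fold change (cello minus wild-type) against mean log2(CPM + 0.5) of the 4 libraries, with the 8 bundle link genes tested in red and the other genes of the 14721 tested in grey. Strc, at -1.23, lies at the lower edge of the genes of similar level, and Whrn and Tub lie on the line at 0.

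Ratios within a library do not depend on how that library was scaled. The ratio of Strc to Ptprq was 0.310 and 0.248 in cello and 0.506 and 0.523 in wild-type. The ratio of Strc to Whrn was 0.423 and 0.446 in cello and 0.956 and 1.18 in wild-type, with both cello libraries below both wild-type libraries. The ratio of Adgrv1 to Whrn was 0.136 and 0.248 in cello and 0.311 and 0.368 in wild-type. The ratio of Strc to Adgrv1 overlapped between genotypes, at 3.12 and 1.80 in cello and 3.07 and 3.21 in wild-type. Of 28 ratios between the 8 genes, 15 did not overlap, among them 6 of the 7 that contain Strc. These ratios reuse the same 8 genes, and no share over ratios of all genes was computed to set beside the count. Those with Strc reflect its own difference in CPM and add no separate result. Overlap was judged on plain CPM ratios, while the test below was made on differences of log2(CPM + 0.5). An exact permutation test (two-sided) of 2 against 2 libraries cannot go below p = 0.333. The ratio of Strc to Ptprq had that p (0.583 adjusted over the 28 ratios). So did that of Strc to Adgrv1, which overlapped only as a plain ratio.

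Each gene was also set against the mean log2 level of marker lists in the same library. Relative to 7 hair cell markers (Myo7a, Myo6, Espn, Pou4f3, Gfi1, Smpx and Rasd2), the log2 ratio of Strc was -1.01 and -1.37 in cello and -0.48 and -0.46 in wild-type, a difference of -0.72. The marker list itself had a median log2 fold change of -0.47, so it is not a fixed scale. Of its 7 genes, 5 were lower in both cello libraries, beside 28.7% of all genes tested. Its members Myo7a and Myo6 are also partner genes above. Ptprq stood at 0.61 and 0.56 in cello and at 0.48 and 0.46 in wild-type on this measure, slightly higher in cello. Adgrv1 stood at -2.48 and -2.13 in cello and at -2.02 and -2.06 in wild-type, a difference of -0.27. Whrn (0.51), Clrn1 (0.77) and Tub (0.50) were higher relative to these markers in both cello libraries, while Pdzd7 (0.21) and Loxhd1 (0.14) overlapped. Clrn2 (0.32) has CPM below the 0.5 added before the logarithm, which shrinks its differences. Its direction on this measure therefore cannot be judged. By construction, every gene shifted upward by the same amount on this scale, where the median of all genes tested was 0.48. At an unadjusted p under 0.05 in limma, 10679 of the 14721 genes were higher and 17 lower. Whrn and Tub lay near that median, Clrn1 above it, and Pdzd7, Loxhd1 and Ptprq below it.

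Relative to 12 epithelial markers, Ptprq overlapped between genotypes, at log2 ratios of -0.38 and -0.48 in cello and -0.38 and -0.44 in wild-type. On the CPM scale these markers had a median log2 fold change of -0.39, beside -0.39 for Ptprq. Strc remained lower on this measure, with -2.0 and -2.41 in cello and -1.35 and -1.36 in wild-type (difference -0.86), and so did Adgrv1, with -3.47 and -3.18 in cello and -2.88 and -2.96 in wild-type (difference -0.41). Clrn1 (difference 0.63) and Tub (0.36) were higher on this measure in both cello libraries, while Whrn (0.37), Pdzd7 (0.077) and Loxhd1 (0.0031) overlapped. For Clrn2 (0.18) the direction again cannot be judged, since its CPM lie below the 0.5 added before the logarithm. Scaling to these markers moved every gene by the same amount, and the median of all genes tested was then 0.34. At an unadjusted p under 0.05 in limma, 6597 genes were then higher and 34 lower in cello. Tub and Whrn lay near that median, Clrn1 above it, and Pdzd7 and Loxhd1 below it. The share of all genes without overlap on this measure was not counted. For Strc and Adgrv1 the exact permutation test gave p = 0.333 each, the smallest it allows, and 0.50 after adjustment over 18 ratios of genes to marker lists.

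**Figure D4:**
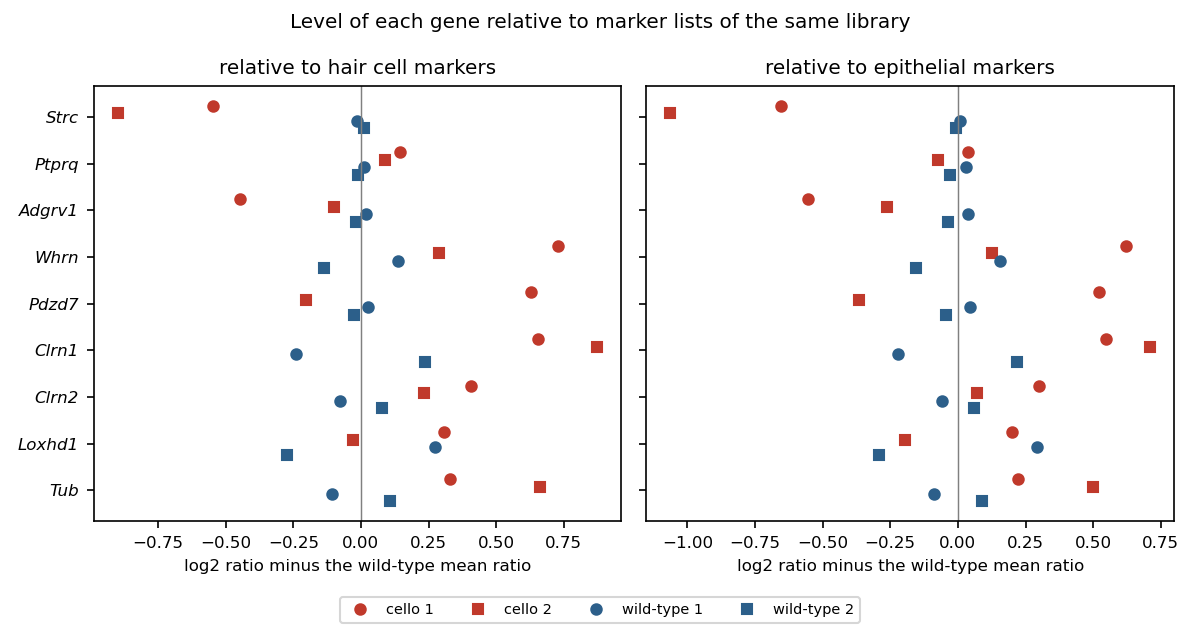
Log2 ratio of each gene to the mean log2 level of 7 hair cell markers (left) and of 12 epithelial markers (right) in the same library, less the mean ratio of the wild-type libraries, which lies at 0. Red points are cello and blue points wild-type libraries (circle, replicate 1, square, replicate 2). Both cello libraries of Strc and Adgrv1 lie left of the wild-type libraries in both panels, while those of Ptprq lie to the right of them in the left panel and on either side of them in the right panel.

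Levels of different genes were compared as CPM per kilobase of exon. In cello the order of the mean levels was Ptprq (3.41), Whrn (2.24), Clrn1 (1.71), Pdzd7 (1.65), Strc (1.15), Loxhd1 (1.05), Tub (1.03), Clrn2 (0.272) and Adgrv1 (0.122). In wild-type it was Ptprq (4.50), Strc (2.78), Whrn (2.23), Pdzd7 (1.99), Clrn1 (1.43), Loxhd1 (1.39), Tub (1.03), Clrn2 (0.386) and Adgrv1 (0.222). Ptprq was thus the most abundant transcript per length in both genotypes. Adgrv1 had the lowest mean in both, but the place of Clrn2 above it rests on 11 to 18 reads per library. On this scale Strc stood at 1.26 and 1.03 in the cello libraries, below both values of Whrn there (2.53 and 1.96), and at 2.71 and 2.86 in the wild-type libraries, above both values of Whrn there (2.40 and 2.06). In cello the libraries of Clrn1 and Pdzd7, Pdzd7 and Strc, Strc and Loxhd1, and Loxhd1 and Tub overlapped, as did those of Clrn1 and Loxhd1 in wild-type, so these neighbours in the order did not differ beyond their spread. The exon lengths are those of GENCODE M21, in which Adgrv1 has 24878 exon bases and Clrn2 has 944, and a transcript that uses part of them would be understated.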

How the data were processed

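Messenger RNA of whole cochleae was sequenced in 4 libraries, and TopHat placed the reads on GRCm38, per the submitters' processing notes. The deposited unit is CPM per gene, which the authors scaled to every alignment counted. Of these alignments, 27.2% to 30.0% fell in 5 entries for reads outside single genes, which entered no test. The sources used here name no counting tool, strand setting or annotation release. Dividing by the value of 1 read gave whole reads for 100% of the CPM values (tolerance 0.001 of a read).

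GENCODE M21 (GRCm38) gave symbols and positions for 36504 of 37239 identifiers, with Myo15a found as Myo15 through RefSeq synonyms. Genes at 1 CPM or more in 2 or more libraries entered limma 3.58.1 (R 4.3.3) as log2(CPM + 0.5), unscaled, with the variance trend on and Benjamini-Hochberg adjustment of two-sided p-values over every gene tested. Fold changes on this scale understate those of low genes. The recovered reads were also tested with edgeR 4.0.16 (quasi-likelihood after TMM) and with DESeq2 1.42.0, where 1142 adjusted p-values were undefined. These fits were tested on simulated data. Ratios were computed in Python 3.11.15 with scipy 1.17.1 and plotted with matplotlib 3.10.9. A count of 0 allows up to 3 reads, or 0.0603 to 0.0712 CPM, for counting error only. Replicates differed by far more than sampling noise.

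The 9 genes and all lists were chosen with earlier results of these data known. Named are the 9 genes, every listed partner gene and the 5 genes nearest to Strc, with predicted genes, Rik names and pseudogenes passed over. A further partner gene is not reported here and is in none of the partner counts, a removal made after the data were seen and not for its values. The ratios printed between pairs of genes were picked after all of them were seen.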

Additional observations from a re-analysis of the deposited data

How the results depend on the processing

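The 8 genes tested kept an adjusted p above 0.05 under all settings other than DESeq2, where Strc passed, and the hair cell marker scaling, where Strc (-0.72, adjusted p = 0.020) and Clrn1 (0.77, adjusted p = 0.032) passed. That scaling set each library to the mean of 7 markers, moved the median of all genes to 0.48 and called 9643 genes, and it takes the level of the markers as known. Of the 9 genes, 2 passed there and 1 in DESeq2, which called 195 genes (80 lower, 115 higher). Strc stayed between -1.37 and -1.09, Adgrv1 between -0.995 and -0.57 and Ptprq between -0.41 and -0.37 when each library was left out in turn. The count of genes past the threshold then ran from 0 to 90, with the 90 reached without wild-type replicate 2. The median of the 8 genes tested ran from -0.44 to -0.22, and that of the partner list, -0.25, from -0.28 to -0.21. These medians were 0.18 and 0.26 relative to hair cell markers (0.48 over all genes) and 0.040 and 0.13 relative to epithelial markers (0.34 over all genes). They were -0.29 and -0.18 in edgeR, and -0.29 and -0.18 in DESeq2. The partner median was -0.21 with TMM and with median-of-ratios, and -0.22 over reads in genes and without haemoglobin and mitochondrially encoded genes.

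The sign of Tub turned with TMM (0.027), median-of-ratios (0.025), CPM over reads in genes (0.016), CPM without haemoglobin and mitochondrially encoded genes (0.019), edgeR (0.039) and DESeq2 (0.036), relative to hair cell markers (0.50) and epithelial markers (0.36), and without 1 library (-0.22 to 0.19). Relative to hair cell markers Ptprq (0.12), Pdzd7 (0.21) and Loxhd1 (0.14) turned, and relative to epithelial markers Pdzd7 (0.077) and Loxhd1 (0.0031). Without 1 library Whrn ran from -0.18 to 0.18, Clrn1 from -0.0091 to 0.52 and Pdzd7 from -0.67 to 0.081. Apart from the construction of the marker scalings, the cause was not tested. With the replicate number as a block, 0 genes passed and Strc had an adjusted p of 0.232. The deviations of equal numbers correlated at 0.133 over genes, and the labels do not say that numbers pair the animals. Pseudocounts of 0.1 and 1, other filters and limma without the trend changed no call. The filter at a mean of 5 CPM removed Adgrv1 from the fit. A gene as low as Clrn2 cannot be judged at this depth.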
